A study of Mus musculus with 18 samples.

Results

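The 10 genes described here carry the signals that keep mouse embryonic stem cells in culture, or push them to leave that state: Lifr, Il6st, Jak1, Stat3 and Socs3 on the side of leukaemia inhibitory factor (LIF), and Fgf4, Fgf5, Fgfr1, Spry4 and Dusp6 on the side of fibroblast growth factors (FGF). They were taken as a named set of pathway genes, and a peak of open chromatin belonged to a gene if it lay over the gene body or within 100 kb of either annotated end. This gave 312 peaks of the 166066 in the whole series, none of them counted for more than 1 gene. The peaks come from ATAC-seq, in which a transposase cuts and tags accessible DNA, of ES cells of the line dTKO with the genotype Suv39h1 fl/fl, Suv39h2-/- and Setdb1 fl/fl, so that every library lacks Suv39h2, also at 0 h. The labels give auxin (100 µg/ml) together with dTAG13 (0.5 µM) for every library, agents that degrade proteins carrying matching tags, and 3 libraries each at 0, 3, 6, 12, 24 and 48 h, 18 in all. The cells grew on gelatin in serum medium that contains LIF, so the LIF pathway had its ligand throughout. The labels do not say whether the line is 1 clone or which protein carries a tag.

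LIF binds LIFR, which pairs with gp130, the product of Il6st; the paired receptors activate the kinase JAK1, and JAK1 phosphorylates STAT3, which enters the nucleus and turns on genes of the naive state together with its own brake Socs3. FGF4, secreted by the stem cells themselves, acts through FGF receptors such as FGFR1 and the RAS-ERK kinase cascade, which primes cells for differentiation. Sprouty proteins such as SPRY4 and the phosphatase DUSP6 are induced by ERK signalling and damp it. Fgf5 is known as a gene that comes on when cells move from the naive to the primed state.

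The deposited file is 1 list of merged peak positions over all libraries, with no read count, height or library. Depth is unknown, spread between replicates cannot be given, and changes after 0 h were not analysed here. A peak states that chromatin was called open in the merged set; it does not measure expression, and neither does its width. The labelled cell type was checked on marker genes: all 10 stem cell markers, Pou5f1, Nanog and Sox2 among them, had a peak within 500 bp of an annotated end, against 5 of 10 fibroblast markers and 5 of 8 markers of primitive endoderm. Pdgfra, which had no such peak, is in both the fibroblast and the endoderm list. The share with such a peak over all 21774 protein-coding genes was 71.4%. The 95% Wilson intervals of the fibroblast (23.7 to 76.3%) and endoderm (30.6 to 86.3%) markers include it, and that of the stem cell markers (72.2 to 100%) begins just above it, so these counts do not tell the cell types apart.

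All 10 signalling genes had a peak within 500 bp of an annotated end (95% Wilson interval 72.2 to 100%, counting error only). The same held for 71.4% of protein-coding genes. The lower bound of the interval lies close to that share, and the difference was not tested. RefSeq start sites gave the strand for 8 of the 10, all but Fgfr1 and Spry4. The start here is the annotated end that the strand makes first, not the RefSeq start site. For Lifr the RefSeq starts lie 39.0 and 49.9 kb inside that end, and for Socs3 970 bp. All 8 had a peak within 500 bp of this end (67.1% of protein-coding genes with a strand). Of the 8, 1, Fgf4, had a peak at the far end (21.6% of those genes). Peaks at both ends were found in Fgf4 and Fgfr1, 2 of 10, against 18.2% of protein-coding genes. In both genes 1 of the 2 peaks did not touch the end, lying 297 bp from the far end of Fgf4 and 366 bp from the higher-coordinate end of Fgfr1. The nearest misses were the lower-coordinate end of Spry4, with a peak 1180 bp away, and the far ends of Dusp6 and Socs3, with peaks 1325 and 1610 bp away.

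**Figure D1:**
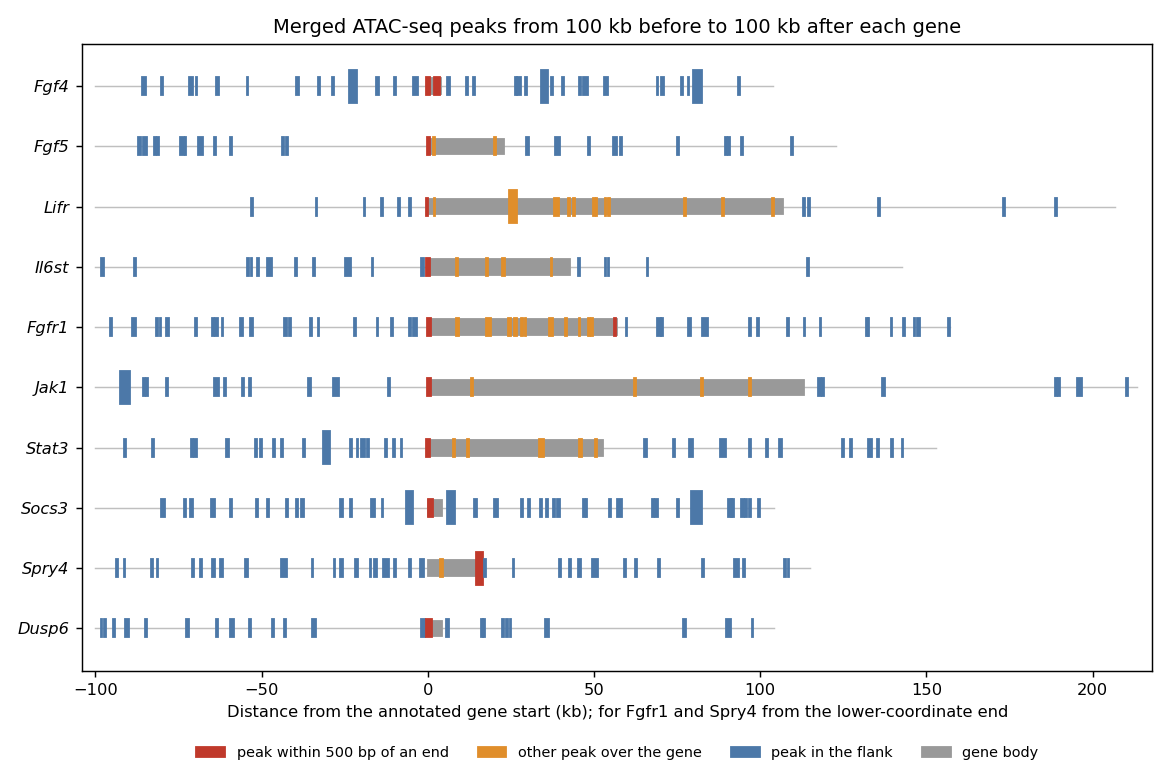
Map of the 312 peaks along the 10 genes; the horizontal axis is the distance in kb from the annotated start, in the direction of transcription (for Fgfr1 and Spry4 from the lower-coordinate end), coloured bars are peaks (drawn at least 0.5 kb wide), grey boxes are gene bodies, and taller bars are the 10 peaks wider than 2000 bp. Each gene has a red peak at an end. The longest stretch between neighbouring peaks of a window runs from 10.8 kb (Socs3) to 51.1 kb (Jak1), not counting stretches at the window edges.

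The start sites give the closest view, and their DNA is shown here because all 9 RefSeq starts of the 8 genes lay under a peak (66.1% of 21263 starts of protein-coding genes did). Lifr has 2 such starts, and they differ most in base composition. Its promoters are printed from 250 bases before to 50 after the start (RefSeq, GRCm38.p6, plus strand, chr15:7129322-7129621 and chr15:7140292-7140591), with each CpG dinucleotide in capitals.
Lifr start 1: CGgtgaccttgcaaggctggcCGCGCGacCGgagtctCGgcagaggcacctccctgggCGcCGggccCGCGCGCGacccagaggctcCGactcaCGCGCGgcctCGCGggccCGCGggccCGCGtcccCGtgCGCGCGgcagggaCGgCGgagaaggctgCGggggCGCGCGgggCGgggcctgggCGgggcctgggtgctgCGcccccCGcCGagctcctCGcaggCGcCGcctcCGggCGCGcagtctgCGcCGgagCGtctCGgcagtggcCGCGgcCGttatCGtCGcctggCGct
Lifr start 2: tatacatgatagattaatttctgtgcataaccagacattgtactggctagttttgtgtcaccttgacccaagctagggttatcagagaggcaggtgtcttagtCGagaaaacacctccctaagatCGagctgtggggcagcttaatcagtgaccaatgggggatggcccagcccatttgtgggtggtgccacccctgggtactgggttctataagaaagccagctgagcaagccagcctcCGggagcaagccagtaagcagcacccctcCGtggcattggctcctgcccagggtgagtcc

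The first Lifr promoter holds 53 CpGs in 300 bases, a ratio of observed to expected CpG of 1.07 that exceeds 96.1% of protein-coding promoters, and it lay wholly under a peak of 1562 bp. The second, 11.0 kb further on, holds 4 CpGs (ratio 0.19) and was crossed by a peak of 317 bp that reached from 133 bp before to 183 bp after the start. Across protein-coding genes, 97.7% of starts with a ratio of 0.6 or more were under a peak, with a median width of 1407 bp. Starts with a ratio below 0.4 were under a peak in 23.3% of cases, with a median width of 997 bp. The narrow peak at the CpG-poor Lifr start was narrower than all but 0.768% of the peaks at open starts. Of the 9 starts of these genes, 7 had a ratio of 0.6 or more, where nearly every start of the genome was open. Stat3 stood between the classes with 15 CpGs and a ratio of 0.55. The 300 bases of the promoter lay wholly under a peak at 7 of the 9 starts (58.9% of protein-coding promoters), Jak1 and the second start of Lifr being the exceptions.

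Socs3, the feedback inhibitor that binds JAK kinases, was the only one of the 8 genes with the palindrome TTCNNNGAA in its promoter, a form of site that STAT dimers are known to bind. The promoter is printed from the minus strand (chr11:117969317-117969616), with the match in capitals.
Socs3: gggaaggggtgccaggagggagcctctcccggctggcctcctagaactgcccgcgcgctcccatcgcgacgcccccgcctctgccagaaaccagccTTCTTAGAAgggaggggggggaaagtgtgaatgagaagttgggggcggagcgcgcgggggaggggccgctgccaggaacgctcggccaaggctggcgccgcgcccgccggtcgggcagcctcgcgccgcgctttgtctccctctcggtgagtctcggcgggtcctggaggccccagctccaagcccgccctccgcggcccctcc
The match, TTCTTAGAA at chr11:117969512-117969520, runs from base -154 to base -146, counted from the start site as +1. It lay inside a peak of 1378 bp (chr11:117968777-117970154) that reached 788 bp before and 589 bp after the start. The palindrome occurs in 7.69% of protein-coding promoters of this length and in 5.67% of those with a CpG ratio of 0.6 or more, so a match in 1 of 9 promoters is close to its frequency elsewhere. A match describes letters and does not show binding.

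The other promoters differed in common promoter elements, and 4 of them are shown for the elements they hold. The capitals mark CCAAT and GGGCGG (the GC box) in Stat3, both of these and the ETS core CCGGAA in Il6st, CCAAT and GGGCGG in Fgf4, and TATAAA and the SOX and TCF core ACAAAG in Fgf5, each searched on both strands. No match overlapped a match of another motif. Stat3 is on the minus strand (chr11:100939491-100939790), the others on the plus strand (Il6st chr13:112463820-112464119, Fgf4 chr7:144861136-144861435, Fgf5 chr5:98253934-98254233).
Stat3: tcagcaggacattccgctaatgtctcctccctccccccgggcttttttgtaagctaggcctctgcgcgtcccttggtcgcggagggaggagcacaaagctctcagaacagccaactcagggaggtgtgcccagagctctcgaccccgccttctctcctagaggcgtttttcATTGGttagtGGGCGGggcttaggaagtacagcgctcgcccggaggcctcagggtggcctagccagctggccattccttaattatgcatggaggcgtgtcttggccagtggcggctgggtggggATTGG
Il6st: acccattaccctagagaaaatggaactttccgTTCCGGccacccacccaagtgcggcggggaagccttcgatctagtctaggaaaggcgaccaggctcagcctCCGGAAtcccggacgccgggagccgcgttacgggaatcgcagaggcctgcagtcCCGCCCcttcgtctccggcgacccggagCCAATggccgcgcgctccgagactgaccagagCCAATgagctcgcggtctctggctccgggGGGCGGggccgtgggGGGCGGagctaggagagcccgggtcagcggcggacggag
Fgf4: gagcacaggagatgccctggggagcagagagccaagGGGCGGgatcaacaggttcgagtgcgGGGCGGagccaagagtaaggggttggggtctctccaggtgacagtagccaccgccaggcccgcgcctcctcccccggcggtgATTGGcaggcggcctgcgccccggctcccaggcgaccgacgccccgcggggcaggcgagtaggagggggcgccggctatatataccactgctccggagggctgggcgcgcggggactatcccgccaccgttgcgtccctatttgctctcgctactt
Fgf5: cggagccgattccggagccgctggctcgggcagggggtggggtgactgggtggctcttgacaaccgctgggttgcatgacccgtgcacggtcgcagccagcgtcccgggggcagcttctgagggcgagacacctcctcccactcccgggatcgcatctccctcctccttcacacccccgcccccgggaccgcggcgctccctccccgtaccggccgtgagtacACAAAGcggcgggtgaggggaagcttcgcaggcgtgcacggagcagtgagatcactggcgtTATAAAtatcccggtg

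The GC box was found in 7 of the 9 promoters (46.2% of protein-coding promoters, and 74.1% of those with a CpG ratio of 0.6 or more), and CCAAT in 6 (38.2% and 36.5%). The ETS core was present in Il6st and Fgf5 (18.7% and 30.8%), and ACAAAG in Stat3, Socs3 and Fgf5 (16.8% and 10.9%). Fgf5 alone held TATAAA (12.6% and 5.58%), which lay after its annotated start, at bases 35 to 40. Only these exact letters were searched, so variants of this element were not counted. The POU octamer ATGCAAAT and the E-box CACGTG were in none of the 9, and are in 1.66% and 7.84% of protein-coding promoters.

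**Figure D2:**
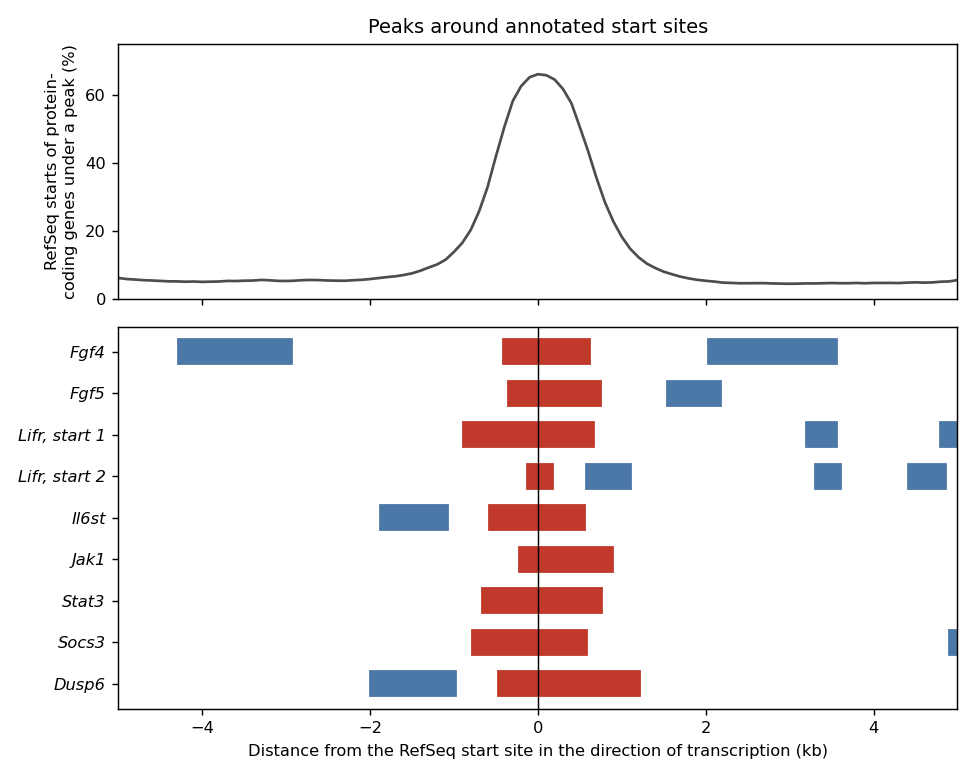
Upper panel, share of the 21263 RefSeq starts of protein-coding genes with a peak over each position, by distance from the start in kb in the direction of transcription. Lower panel, the peaks near the 9 starts of 8 signalling genes, in red where a peak covers the start (317 to 1689 bp wide) and in blue otherwise; the upper curve reaches 66.1% at the start.

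The ligand genes lay in different surroundings. Fgf4 (chromosome 7, 144861386 to 144865245) is 3860 bp long, and 2 peaks covered much of it. The start peak of 1030 bp ran from 413 bp before to 616 bp after the start, and a wider peak of 1540 bp lay 2.02 to 3.56 kb into the gene, near its far end. An enhancer bound by POU5F1 and SOX2 is known near the far end of Fgf4; whether this peak matches it was not tested. With 33 peaks in its window, Fgf4 had 16.2 peaks per 100 kb, more than 80.7% of protein-coding genes. The widest peak of the window, 2628 bp, lay 79.8 to 82.4 kb downstream between genes. The next widest, of 2459 and 2002 bp, covered ends of Fgf3 and Fgf15, neighbouring ligands of the same family. Fgf5 (chromosome 5, 98254184 to 98277033) had a start peak of 1115 bp, another of 644 bp at 1.54 to 2.18 kb, and 1 of 374 bp at 19.9 to 20.3 kb. No peak lay in the 41.9 kb before its start peak. Downstream of the gene its window held 10 peaks, the widest of them 1357 bp wide at 38.4 to 39.7 kb from the start. Its density was 10.8 peaks per 100 kb, with 52.6% of protein-coding genes lower.

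The receptor genes had peaks inside the gene as well as at an annotated end, as did Fgf5, Jak1, Stat3 and Spry4. Lifr and Il6st had 11.2 and 9.35 midpoints per 100 kb of gene body, more than 55.6% and 49.3% of protein-coding genes. Lifr (chromosome 15, 7090610 to 7197489), which encodes the ligand-binding receptor, had 13 peaks over its body. The peak over its annotated end was 536 bp wide and extended only 8 bp into the gene, narrower than the end peaks of all but 5.66% of protein-coding genes with one. The RefSeq starts lie 39.0 and 49.9 kb further in, and the widest peak of the window, 2135 bp, lay between them and the annotated end, at 24.6 to 26.7 kb. Il6st (chromosome 13, 112464070 to 112506860), the shared signalling subunit, had a start peak of 1140 bp and 4 peaks inside the gene of 350 to 776 bp. A separate peak lay 1.07 to 1.89 kb before the annotated start. Its widest peak, 1867 bp, lay 23.0 to 24.9 kb upstream between genes. Fgfr1 (chromosome 8, 25518759 to 25575718) had 13 peaks over a body of 56960 bp, or 22.8 midpoints per 100 kb, more than 83.8% of protein-coding genes. Its end peaks were 1188 and 520 bp wide, and the wider also covered an end of the long noncoding RNA Gm31288, which overlaps the gene.

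The transducers differed in their gene bodies. Jak1 (chromosome 4, 101151974 to 101265282) is the longest of the 10 genes at 113309 bp and had a start peak of 1119 bp and 4 further peaks over its body, of 226 to 604 bp. Its body density of 4.41 peaks per 100 kb was the lowest of the set and exceeded that of 32.6% of protein-coding genes. The start peak reached 220 bp before the RefSeq start and 898 bp after it. The widest peak of the window, 2817 bp, lay 89.7 to 92.5 kb upstream over an end of the long noncoding RNA E130102H24Rik. Stat3 (chromosome 11, 100886806 to 100939594) had a start peak of 1427 bp and 5 further peaks over its body, among them 1 of 1550 bp at 33.4 to 35.0 kb from the start. The stretch of 21.2 kb between that peak and the next toward the start was the longest without a peak in the Stat3 window; in the other 9 genes the longest such stretch lay in the flanks. The widest peak near Stat3, 2098 bp, covered an end of Cavin1 at 29.3 to 31.4 kb upstream.

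The brakes included the widest peaks at an end. Spry4 (chromosome 18, 38586247 to 38601347) had 1 of 2248 bp over its higher-coordinate end, wider than the end peaks of 93.7% of protein-coding genes with one. The same peak covered an annotated end of the neighbouring gene Arhgap26, so it cannot be assigned to Spry4 alone. Dusp6 (chromosome 10, 99263231 to 99267489) had a start peak of 1689 bp, wider than 75.5%, and it was the only peak over this gene of 4259 bp. It reached 471 bp before and 1217 bp after the start, the longest downstream reach of the 9 starts. Socs3 (chromosome 11, 117966079 to 117970336) had 1 peak over its body, which did not touch the annotated end but lay 182 bp inside it, over the RefSeq start 970 bp from that end. Wide peaks flanked it on either side: 1 of 2038 bp lay 4.42 to 6.46 kb upstream of the annotated start, and 1 of 2245 bp lay 5.87 to 8.11 kb downstream of it. A peak of 3247 bp at 79.2 to 82.5 kb downstream was the widest of all 312.

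**Figure D3:**
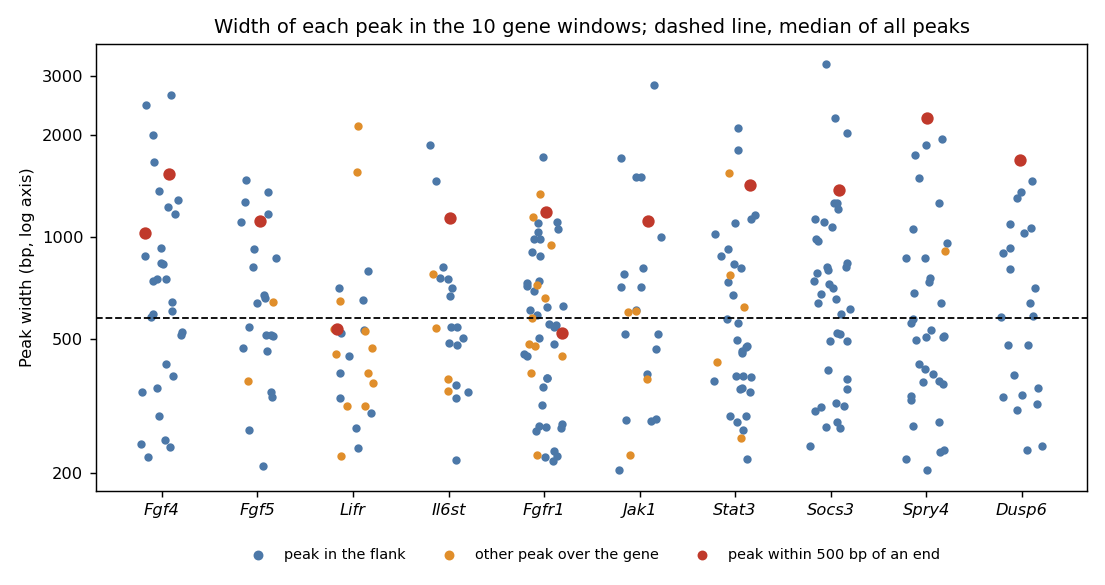
Width in bp, on a log axis, of each of the 312 peaks by gene, coloured by place, with a dashed line at the median of all peaks on assembled chromosomes (578 bp). End peaks (red) lie above the line except in Lifr and for 1 of the pair in Fgfr1, and the widest peak of the set, 3247 bp, is in the flank of Socs3.

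Taken over the 312 peaks, widths were close to those of the whole list. The median was 578 bp in the windows of the 10 genes and 578 bp over the 165744 peaks on assembled chromosomes, and 10 of the 312 (3.21%) were wider than 2000 bp, against 1.79% of all. The 12 peaks at the genes' own ends had a median of 1164 bp, and the 39 others over their bodies 529 bp. Of the 261 peaks in the flanks, 29 lay within 500 bp of an end of another gene, 114 over another gene and 118 between genes. Counting any gene, 14.1% of the 312 peaks were at a gene end, 48.1% over a gene body and 37.8% between genes. For all peaks these shares were 15.2%, 47.1% and 37.8%. The widest end peak per gene had a median of 1283 bp over the 10 genes and 1326 bp over all protein-coding genes with one.

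The windows of the 10 genes held a median of 13.2 peaks per 100 kb, against 10.3 over all protein-coding genes (quartiles 5.80 and 14.9). Fgfr1 (19.5), Socs3 (19.6), Spry4 (16.7) and Fgf4 (16.2) lay above the upper quartile and none of the 10 below the lower. Jak1 (7.34), Lifr (7.82) and Il6st (8.65) lay below the median of all genes. Stat3 had 14.6, Dusp6 11.7 and Fgf5 10.8. The median was 8.65 for the 5 genes of the LIF side and 16.2 for the 5 of the FGF side, but the ranges, 7.34 to 19.6 and 10.8 to 19.5, overlapped and the difference was not tested. The surroundings varied in other genes too: the windows held 1 to 4 other protein-coding genes, with a median of 2.5 against 4 over all protein-coding genes. Lifr, Jak1, Spry4 and Dusp6 had 1 each, and their densities spanned 7.34 to 16.7. Peaks covered 4.46% (Lifr) to 16.1% (Socs3) of a window, with a median of 9.40% over the 10 genes and 7.49% over all protein-coding genes. In steps of 20 kb from the gene outwards, the flanks of the 10 genes had 14.5, 13.8, 11.8, 13.5 and 12.5 peaks per 100 kb, against 11.2, 10.7, 10.4, 10.2 and 10.1 around all protein-coding genes. The windows of Pou5f1, Nanog and Sox2, the core factors of the pluripotent state, had 24.4, 22.7 and 19.3 peaks per 100 kb, and only Fgfr1 and Socs3 of the 10 exceeded the lowest of these 3.

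**Figure D4:**
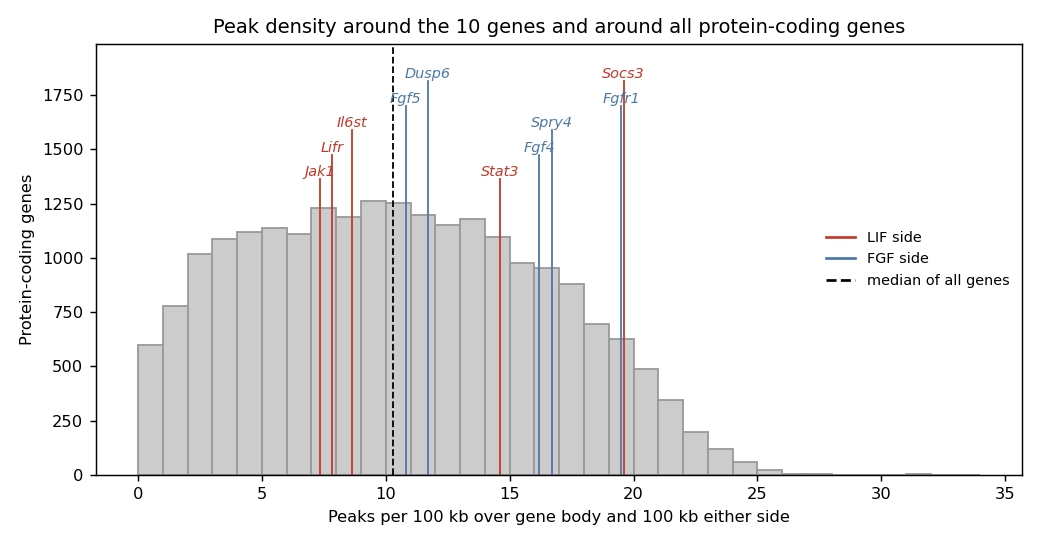
Histogram of peaks per 100 kb over gene body and 100 kb either side for 21774 protein-coding genes (grey), with the 10 signalling genes as lines (red, LIF side; blue, FGF side) and the median of all genes, 10.3, as a dashed line. The genes run from Jak1 at 7.34 to Socs3 at 19.6, with 7 of 10 above the median.

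Within gene bodies, the 10 genes had a median of 12.2 peak midpoints per 100 kb and all protein-coding genes 9.53. Short genes reach high values with a single peak: Socs3 and Dusp6, each with 1, had 23.5, and Fgf4, with 2, had 51.8. Among the genes of 50 kb or more, Fgfr1 had 22.8, Stat3 11.4, Lifr 11.2 and Jak1 4.41.

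The wider pathways were read from 9 lists with 109 further genes, of which 108 could be placed; Spry3 could not. A peak within 500 bp of an end was found in 101 of the 108 (93.5%, Wilson interval 87.2 to 96.8), beside the 71.4% of all protein-coding genes. Every gene had one in 6 lists: 10 brakes of JAK-STAT signalling such as Socs1, Socs2, Cish and Socs4; 9 STAT3 targets such as Klf4, Tfcp2l1, Gbx2 and Pim1; 6 FGF receptors and co-receptors such as Fgfr2, Fgfr3, Fgfr4 and Fgfrl1; 19 members of the RAS-ERK relay such as Frs2, Frs3, Shc1 and Grb2; 14 SPRY, SPRED and DUSP brakes such as Spry1, Spry2, Spred1 and Spred2; and 10 ERK targets such as Etv1, Etv4, Etv5 and Elk1. The median end peak was 1010 bp in the list of LIF and IL6-family ligands and receptors, 1092 bp for STAT3 targets, and 1384 to 1920 bp in the other 7 lists. These lists were chosen with results of these data known, and their genes are not replicates.

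The 7 genes without a peak at an end were 5 ligands and 2 STATs. Among FGF ligands 16 of 20 had one, Fgf1, Fgf2, Fgf3 and Fgf8 among them. Fgf6, Fgf7 and Fgf21 had their nearest peaks 3.47, 1.04 and 0.899 kb from an end and no RefSeq start under a peak. Fgf13 had its nearest peak 17.0 kb from an end, but 2 of its 4 RefSeq starts lay under a peak. It is a long gene (chromosome X, 59062139 to 59585572) with 8 peaks inside. Its window was sparse, with 1.38 peaks per 100 kb against a median of 10.3 over all protein-coding genes. Il11, a ligand of the LIF family, had its nearest peak 0.906 kb away and neither of its 2 starts under a peak, while Lif, Il6, Il6ra and Il11ra1 had an end peak. The Lif peak was 353 bp wide and 0.214 kb from the end, and it did not cover the RefSeq start. Among the JAK and STAT genes, Jak2, Jak3 and Tyk2 had an end peak, whereas Stat4 and Stat5b had none within 6.04 and 0.715 kb. In both of these, 1 of 2 RefSeq starts lay under a peak inside the gene, so all 8 JAK and STAT genes with a listed start had an open one. By that measure 73 of 84 pathway genes had an open start, beside 67.9% of protein-coding genes. The listed FGF family genes had 9 of 14 and the LIF and IL6 family 5 of 9.

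**Figure D5:**
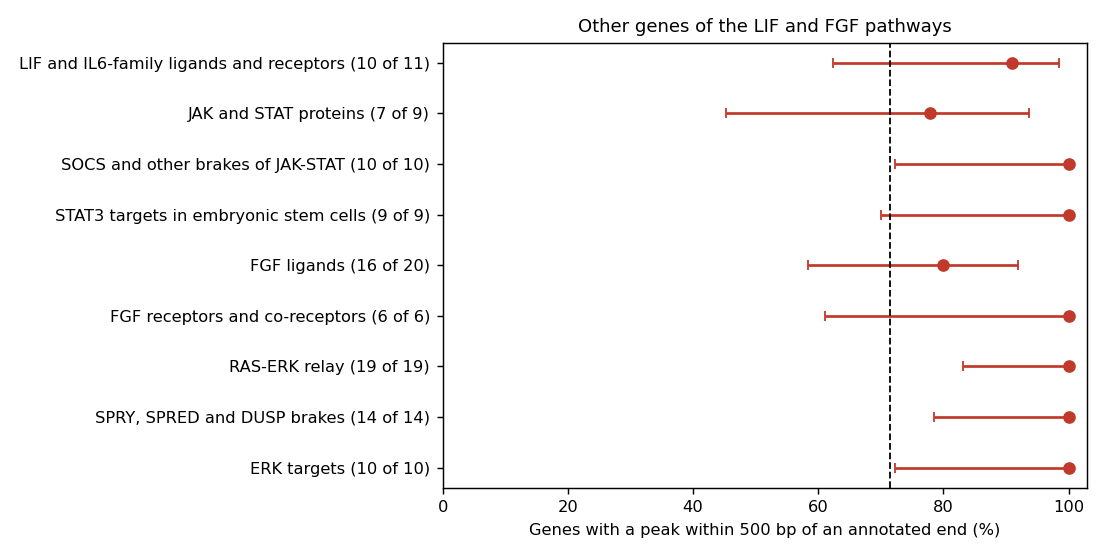
Share of genes with a peak within 500 bp of an annotated end in 9 lists of further pathway genes, with 95% Wilson intervals that cover counting error only and counts in brackets; the dashed line is the 71.4% of all protein-coding genes. The shares run from 77.8% (JAK and STAT proteins) to 100% in 6 lists, and the intervals of 5 lists reach below the line.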

How the data were processed

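Per the labels' protocols, nuclei were exposed to transposase and sequenced. Tools listed in the submitters' processing notes are MACS2 2.2.7.1, Bowtie2 2.4.2 and Trimmomatic 0.36, and the genome builds listed are GRCm38 and mm10; their roles are not stated. The authors deposited 1 list of merged narrow peaks with chromosome, start and end; how peaks were merged, thresholds, duplicate handling and any shift of insertions are not given in the sources used here. A shift would move peak edges slightly, and a threshold would change which peaks exist. The file has 0 columns of values per sample, so the planned tests of later times against 0 h were not run.

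Gene positions, start sites and promoter sequences came from RefSeq tables of GRCm38.p6, the build of mm10; rows with scaffold or patch coordinates were left out, which left 21774 protein-coding genes. Start sites were listed for 17492 of these and for 8 of the 10 members. A peak counted at an end if it overlapped a window of 500 bp either side by at least 1 bp, and as in a window if it overlapped the gene or 100 kb either side; body densities used midpoints. Named genes were all members, list genes without an end peak, up to 4 of each list with one in list order (1 is not reported here), and genes with an end under the 3 widest peaks of a window or overlapping a member. Members and lists were chosen with earlier results of these data known. Counting was tested on simulated peaks over 705 genes. Figures were drawn with matplotlib 3.10.9; all values were computed in Python 3.11.15 with pandas 2.3.3, numpy 2.4.6 and, for intervals, scipy 1.17.1.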

Additional observations from a re-analysis of the deposited data

How the results depend on the processing

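Of 28 alternative values, 20 stayed within 1.5 times the reported value and 8 moved further. All 10 genes kept a peak at an end with windows of 250 and 2000 bp and with an overlap of at least 200 bp. At these settings 68.8%, 79.7% and 69.4% of all protein-coding genes had one. With only peaks wider than 578 bp, the median of all, 9 of 10 did, Lifr being the exception (66.7% of all protein-coding genes). A peak over a RefSeq start was found in 8, a setting chosen after seeing the data for which 8 have a start listed. The same held for 67.9% of protein-coding genes with a start listed. The count with peaks at both ends depended on the window: 0 at 250 bp, 5 at 2000 bp, 1 with an overlap of 200 bp and 1 with wide peaks alone, against 2 as reported. Over all protein-coding genes the shares at these settings were 11.7%, 43.7%, 13.2% and 12.1%, against 18.2% as reported. The number of peaks was 184 with flanks of 50 kb, 520 with 200 kb and 156 with wide peaks alone, which follows from fewer or more bases and peaks counted. The median density was 6.59 peaks per 100 kb with wide peaks alone (5.40 over all protein-coding genes). No paired analysis was possible because the file holds no values per library, and leaving out replicates was not run for the same reason. Unknown depth limits what an absent peak means.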

Other observations

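Members of both pathways sit beside relatives on the chromosome, which were singled out here after their values were seen. Fgf4 lies between Fgf3 and Fgf15, and all 3 ligands had an end peak: 2459 bp for Fgf3, 2002 bp for Fgf15, and 1540 bp for the wider of the pair in Fgf4. Their windows overlap, so their densities of 16.6, 15.2 and 16.2 peaks per 100 kb share peaks. Stat3 lies beside Stat5a and Stat5b, which encode related transcription factors. Stat5a had an end peak of 1166 bp whose edge lay 0.468 kb from the annotated end, just inside the limit of 500 bp, and Stat5b had none within 0.715 kb, so the call for both rests on the width of the end window.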
